A study of Mus musculus with 14 samples.

Results

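Serpins are protein-coding genes of one superfamily of protease inhibitors, and the 63 genes whose symbol begins with Serpin were followed here among 21312 protein-coding genes in exomes of 12 p53null mammary tumours of Balb/c mice. The members were taken by symbol and biotype from the tables of variants per gene, and all 63 serpin genes of the RefSeq mouse gene table (GRCm38.p6) were listed in at least 1 tumour. They comprise 24 genes of clade A, 28 of clade B and 11 of clades C to I. Of these, 36 were treated as expanded paralogues because lettered copies share their name (16 Serpina and 20 Serpinb genes), 16 were other Serpina and Serpinb genes with a number of their own, and 11 were clade C to I genes without lettered copies.

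Each of 4 groups held 3 tumours. A mammary fragment from a syngeneic p53null donor aged 8 to 10 weeks was implanted into the fat pad of every recipient, and tumours were collected when the diameter reached 2 cm. Recipients in the gel experiment were wild-type females aged 3 to 4 weeks whose cleared mammary fat pad had received collagen 1 and basement membrane gel: stiff, with the collagen crosslinked in 500 mM L-ribose (tumours A7, A8 and A9), or soft, without crosslinking (A1, A2 and A3). Recipients in the host experiment were LysM-Cre GPX4 knockout (KO) mice (B4, B5 and B6) or LysM-Cre GPX4 wild-type (WT) mice (B1, B2 and B3). LysM-Cre acts in myeloid cells, so the deletion is in cells of the host and the implanted fragment does not carry it. All 4 groups share the p53null fragment. The groups bear on the study's question of DNA damage under tissue tension and lipid peroxidation. Exons were captured and sequenced as 150 bp read pairs with a stated depth above 50x. Each value is a whole number of variants per gene, with no read depth, position or allele fraction, so inherited strain differences, somatic changes and false calls cannot be told apart.

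A serpin works as bait. The target protease cuts an exposed reactive centre loop, the serpin then changes shape and traps the protease in an inactive covalent complex. Clade A serpins are mostly secreted plasma proteins made in the liver, and clade B serpins act mostly inside cells, where several guard against granule or lysosomal proteases. In the mouse both clades have local arrays of near-identical copies, whose reactive centre loops differ from copy to copy. In mammary tissue the family is known for Serpinb5, which encodes maspin.

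Protein-altering variants are those that snpEff predicts to have HIGH impact (such as a frameshift or a stop gained) or MODERATE impact (mostly missense). LOW variants are mostly synonymous and MODIFIER variants mostly intronic or flanking. The serpin genes held 596 protein-altering variant counts in all, summed over genes and tumours. At least 1 such variant in at least 1 tumour was found in 38 of the 63 members (60.3%), against a background of 55.5% of all protein-coding genes. A variant in all 12 tumours was found in 5 members (7.94%, background 7.47%), namely Serpina3f, Serpina1b, Serpina1e, Serpina1f and Serpinb12. A variant in 1 tumour alone was found in 10 members (15.9%, background 18.1%). As a family, serpins were therefore close to the background in how many of them carried such a variant.

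**Figure D1:**
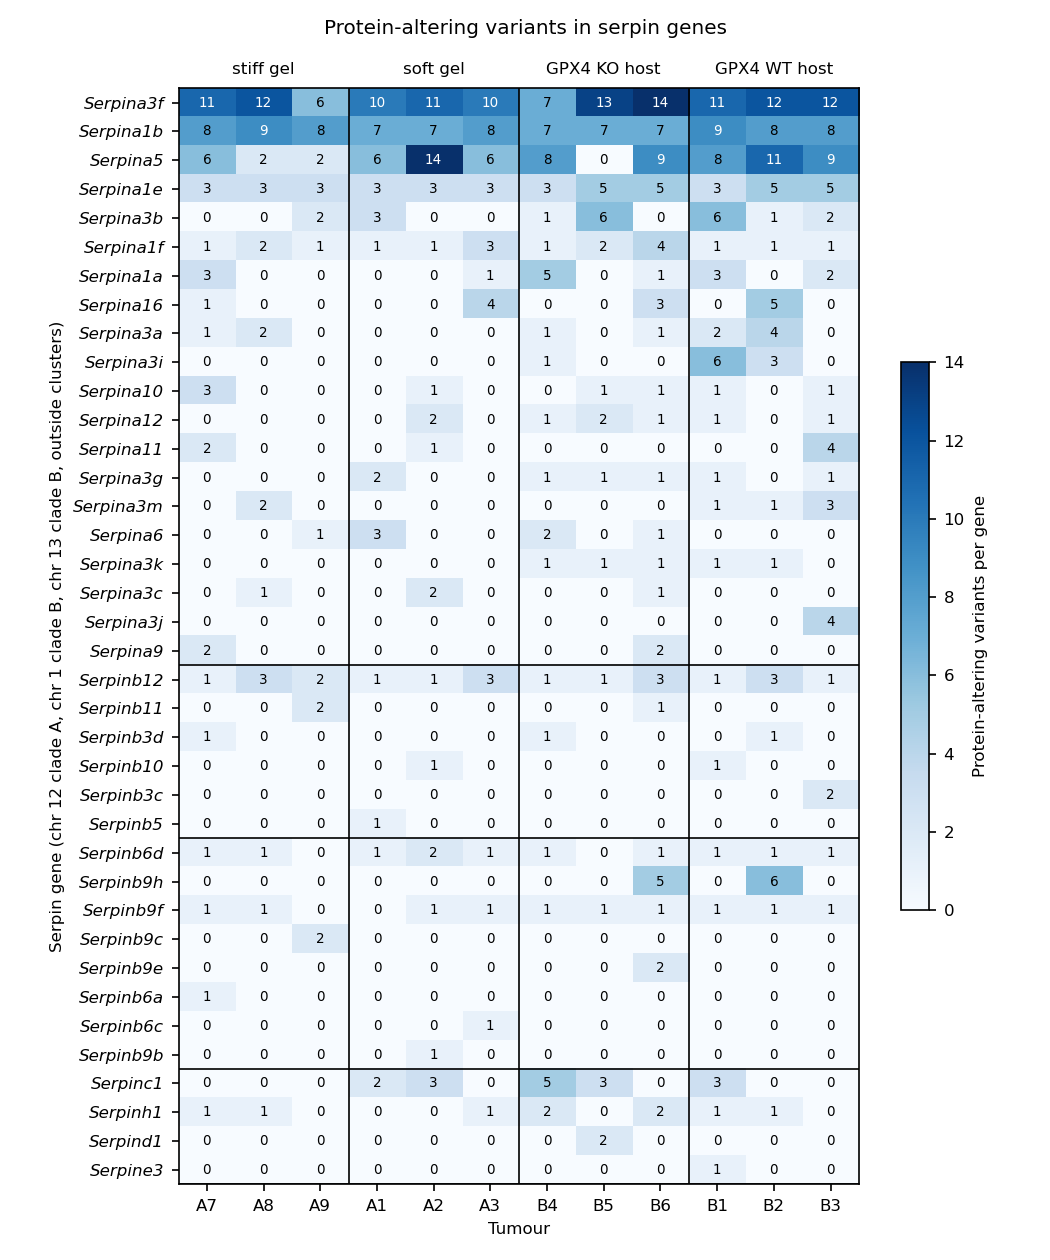
Protein-altering variants per gene (cell number and colour) in each of the 12 tumours (columns, by group) for the 38 serpin genes with at least 1, ordered by chromosomal cluster and then by total. The 4 top rows, Serpina3f, Serpina1b, Serpina5 and Serpina1e, hold 347 of the 596 counts, and most other cells are 0.

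The counts were concentrated in few genes. Serpina3f, Serpina1b, Serpina5 and Serpina1e together held 58.2% of the family total, and 25 members had 0 in every tumour. Clade A held 83.4% of the total with 24 genes, and 20 of these 24 had a protein-altering variant. Clade B held 11.9% with 28 genes, of which 14 had one. Clades C to I held the remaining 28 counts, in 4 of 11 genes.

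Expanded paralogues had higher counts than clade C to I genes in every tumour, but not than the other clade A and B genes. Expanded paralogues averaged 0.956 ± 0.224 protein-altering variants per gene and tumour (SD over 12 tumours), with 23 of 36 genes affected (63.9%). The other clade A and B genes averaged 0.807 ± 0.352, with 11 of 16 affected (68.8%), and the clade C to I genes 0.212 ± 0.203, with 4 of 11 affected (36.4%). With the median in place of the maximum over transcripts, the clade C to I mean was 0.0833 and 27.3% of the genes were affected. The mean over all protein-coding genes was 0.542 ± 0.117. Expanded paralogues were above the clade C to I genes in 12 of 12 tumours, and above the other clade A and B genes in 8 of 12.

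Within clade A the lettered genes had the higher mean and within clade B the lower one. Lettered clade A genes averaged 1.92 ± 0.434 per gene and tumour, and clade A genes without lettered copies 1.33 ± 0.704. Lettered clade B genes averaged 0.183 ± 0.135, and clade B genes without lettered copies 0.281 ± 0.142. Unlettered clade A genes were above the lettered clade B genes in 12 of 12 tumours. Lettered clade B genes lay below the mean of all protein-coding genes in 12 of 12 tumours, and above the clade C to I genes in only 7 of 12. Without their 3 highest members, Serpina3f, Serpina1b and Serpina1e, the other 13 lettered clade A genes averaged 0.660, and without Serpina5 the other 7 unlettered clade A genes averaged 0.560. Serpinb12 held 21 of the 27 counts of the unlettered clade B genes, so their higher mean rests on it. The median total per gene was 0.5 in both clade B sets. The genes set apart here were chosen by their counts. The members of one array share sequence and are not independent of each other, gene length was not taken into account, and no test was made between these sets.

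**Figure D2:**
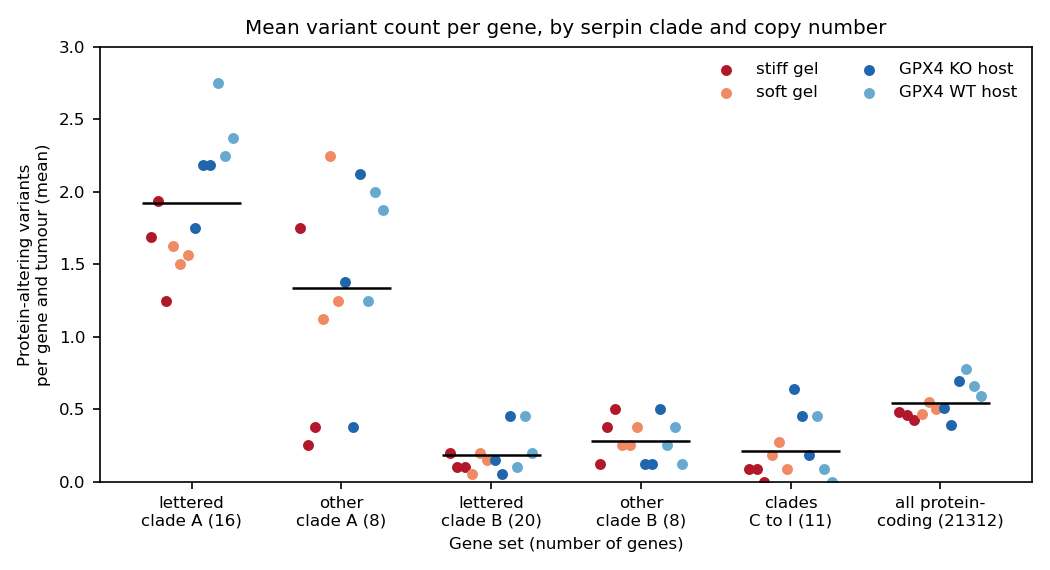
Mean number of protein-altering variants per gene (vertical axis) in each tumour (points, coloured by group) for 5 sets of serpins and for all protein-coding genes; black lines are means over the 12 tumours. Both clade A sets have the highest means, 1.92 and 1.33, while lettered clade B genes, at 0.183, lie below all protein-coding genes, at 0.542.

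The clade A genes stand side by side on mouse chromosome 12, apart from Serpina7, the thyroxine-binding globulin gene, which is elsewhere and had 0. The 23 genes of that array had a median total of 8 protein-altering variants over the 12 tumours, and 20 of them had at least 1. In the order of the RefSeq table no other protein-coding gene lies between them. Of the 20 protein-coding genes next to the array, 10 on either side, 4 had a protein-altering variant (Unc79 12, Dicer1 5, Clmn 50 and Tcl1b1 1) and their median total was 0. The same step was present in MODIFIER variants, with a median of 39.4 per tumour in the array genes and 1.5 in the flanking genes. Of all protein-coding genes 55.5% had a protein-altering variant, with a median total of 1 and a median MODIFIER count of 4.42. The flanking genes were thus low themselves, which adds to the size of the step. The 2 clade B arrays had lower counts, with 32 variants in 12 genes on chromosome 1 (6 genes affected) and 39 in 16 genes on chromosome 13 (8 affected). Their median MODIFIER counts were 3.96 and 1.79 per gene and tumour, against 4.42 over all protein-coding genes.

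**Figure D3:**
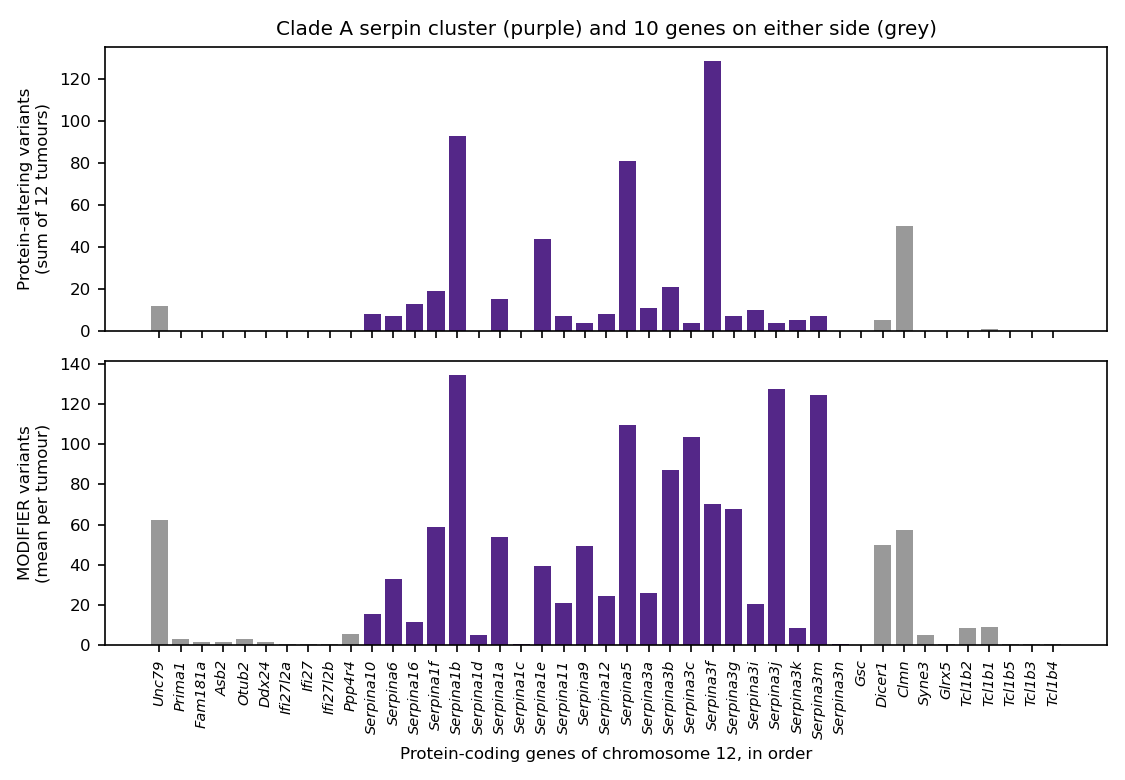
Total protein-altering variants over 12 tumours (top) and mean MODIFIER variants per tumour (bottom) for the 23 clade A serpins of the chromosome 12 array (purple) and the 10 protein-coding genes on either side (grey), in gene order. Within the array Serpina1c, Serpina1d and Serpina3n have 0 protein-altering variants, and most flanking genes other than Unc79, Dicer1 and Clmn are low in both panels.

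Serpina1 copies encode alpha-1-antitrypsins, the main plasma inhibitors of neutrophil elastase. Serpina1b (ENSMUSG00000071178) had 8, 9 and 8 protein-altering variants in stiff A7, A8 and A9, and 7, 7 and 8 in soft A1, A2 and A3. It had 7 in each of the KO-host tumours, and 9, 8 and 8 in WT-host B1, B2 and B3. The 12 counts ranged only from 7 to 9. Of these variants, 1 frameshift was counted in each of the 12 tumours, and LOW variants numbered 8 in 11 tumours and 10 in A8. Serpina1e had 3 in each stiff and each soft tumour, 3, 5 and 5 in KO-host B4, B5 and B6, and 3, 5 and 5 in WT-host B1, B2 and B3, all of them missense. Serpina1f had 1, 2 and 1 in stiff, 1, 1 and 3 in soft, 1, 2 and 4 in KO-host and 1, 1 and 1 in WT-host tumours, with a HIGH variant in every tumour.

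The remaining copies differed sharply from these. Serpina1a had 3, 0 and 0 in stiff, 0, 0 and 1 in soft, 5, 0 and 1 in KO-host, and 3, 0 and 2 in WT-host tumours, so that each group held both a 0 and a positive count. Serpina1c and Serpina1d had 0 coding variants in all 12 tumours. Serpina1c had 4 MODIFIER variants in B3 and 0 in the other 11 tumours, while Serpina1d had 0 to 13. Short reads from near-identical copies may be placed on the wrong copy or left out, so the split of counts among Serpina1a to Serpina1e is uncertain.

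How alike these copies are is visible in the sequence just upstream. RefSeq promoters (GRCm38.p6, 250 bases before to 50 after the start) were found for 54 members, and 13 of 88 pairs within lettered sets were at least 85% identical. Among these, Serpina1b with 93 protein-altering variants differed most in count from Serpina1c and Serpina1d, both with 0. The more alike of these pairs, Serpina1b and Serpina1c, is shown from chr12:103738140-103738439 and chr12:103904901-103905200, both on the minus strand. Capitals mark bases that differ between the pair or have no partner in the alignment, and 276 of 302 aligned positions (91.4%) were identical.
Serpina1b: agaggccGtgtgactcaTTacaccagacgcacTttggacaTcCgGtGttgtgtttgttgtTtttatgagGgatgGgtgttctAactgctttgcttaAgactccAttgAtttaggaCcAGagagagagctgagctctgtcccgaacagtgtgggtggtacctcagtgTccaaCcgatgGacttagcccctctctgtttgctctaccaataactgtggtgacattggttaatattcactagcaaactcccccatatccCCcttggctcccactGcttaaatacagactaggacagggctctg
Serpina1c: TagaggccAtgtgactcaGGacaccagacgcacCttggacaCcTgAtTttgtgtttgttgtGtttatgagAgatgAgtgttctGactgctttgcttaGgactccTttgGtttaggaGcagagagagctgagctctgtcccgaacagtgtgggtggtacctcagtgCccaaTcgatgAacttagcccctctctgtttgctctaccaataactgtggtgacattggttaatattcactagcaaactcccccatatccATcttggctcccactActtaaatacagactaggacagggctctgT
Upstream variants listed for Serpina1b numbered 0 to 25 per tumour with a median of 6.5, and for Serpina1c they were 0 in every tumour. Positions are not listed, so these variants need not lie in the bases shown. The most alike pair of all, Serpinb9e and Serpinb9g at 93.4%, had totals of 2 and 0 protein-altering variants, so a near-identical promoter went with counts that were far apart in one pair and close in the other.

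Serpina3 genes are the mouse copies of the antichymotrypsin gene, whose human product inhibits neutrophil cathepsin G and mast cell chymase. Serpina3f (ENSMUSG00000066363) held the most variants of the family, with 11, 12 and 6 in stiff, 10, 11 and 10 in soft, 7, 13 and 14 in KO-host and 11, 12 and 12 in WT-host tumours. The lowest counts were those of A9 and B4, and every tumour had at least 6. Frameshift variants of Serpina3f numbered 2, 4 and 0 in stiff, 2, 2 and 1 in soft, 1, 4 and 2 in KO-host and 2, 4 and 4 in WT-host tumours, and missense variants 5 to 11 per tumour.

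Serpina3b had 0, 0 and 2 in stiff, 3, 0 and 0 in soft, 1, 6 and 0 in KO-host and 6, 1 and 2 in WT-host tumours. Serpina3a had 1, 2 and 0 in stiff, 0 in every soft, 1, 0 and 1 in KO-host and 2, 4 and 0 in WT-host tumours. Both varied as much within groups as between them. Serpina3n, the copy induced in reactive astrocytes and able to inhibit granzyme B, had 0 coding variants in all 12 tumours. Serpina3c, Serpina3j and Serpina3m had among the highest MODIFIER counts of the array, at 61 to 175 per tumour, yet only 4, 4 and 7 protein-altering variants in all, and the 4 of Serpina3j were all in B3.

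Serpina5 encodes protein C inhibitor, which acts on activated protein C and several coagulation and fibrinolytic proteases. It had 6, 2 and 2 in stiff, 6, 14 and 6 in soft, 8, 0 and 9 in KO-host and 8, 11 and 9 in WT-host tumours. A8, A9 and B5 were lowest in protein-altering variants, had 0 frameshifts where the other 9 tumours had 3 or more, and were also lowest in LOW variants, with 5, 5 and 4. Serpina16 had 1, 0 and 0 in stiff, 0, 0 and 4 in soft, 0, 0 and 3 in KO-host and 0, 5 and 0 in WT-host tumours. Among the other clade A genes, Serpina12 (vaspin), Serpina10 (the protein Z-dependent protease inhibitor), Serpina6 (corticosteroid-binding globulin), Serpina11 and Serpina9 had totals of 8, 8, 7, 7 and 4.

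**Figure D4:**
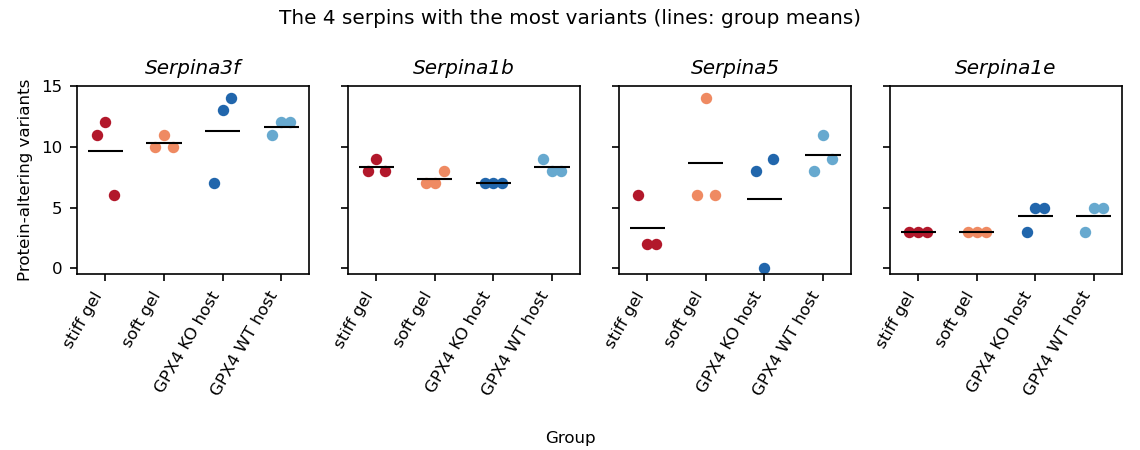
Protein-altering variants (vertical axis) of the 4 serpin genes with the highest totals in each tumour (points), by group; lines are group means of 3 tumours. Serpina1b and Serpina1e vary little, Serpina3f ranges from 6 to 14, and Serpina5 from 0 in a KO-host tumour to 14 in a soft tumour.

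Clade B members had low counts with few exceptions. Serpinb12, an epithelial inhibitor of trypsin-like proteases, had 1, 3 and 2 in stiff, 1, 1 and 3 in soft, 1, 1 and 3 in KO-host and 1, 3 and 1 in WT-host tumours, and so 1 or more in all 12. Serpinb6d had 1, 1 and 0 in stiff, 1, 2 and 1 in soft, 1, 0 and 1 in KO-host and 1 in every WT-host tumour, and Serpinb9f a single variant in each of 10 tumours, with 0 in A9 and A1. Most tumours thus carried 1 variant in each of these genes, without a group that lacked it. Serpinb9h, a copy related to the granzyme B inhibitor gene Serpinb9, had 5 variants in KO-host B6 and 6 in WT-host B2 and 0 in the other 10 tumours.

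Serpinb9 itself, Serpinb8 and Serpinb1b had 0 coding variants in every tumour. Serpinb2 (PAI-2) and the 3 Serpinb1 genes, whose human relative inhibits neutrophil elastase, had 0 protein-altering variants, and Serpinb5 (maspin) had 1, in soft A1. The other affected clade B genes, Serpinb3c, Serpinb3d, Serpinb6a, Serpinb6c, Serpinb9b, Serpinb9c, Serpinb9e, Serpinb10 and Serpinb11, had totals of 1 to 3.

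Of the clade C to I genes, Serpinc1, which encodes antithrombin, had the most. It had 0 in every stiff tumour, 2, 3 and 0 in soft, 5, 3 and 0 in KO-host and 3, 0 and 0 in WT-host tumours. Serpinh1, which encodes the collagen chaperone Hsp47 and is not known as a protease inhibitor, had 1, 1 and 0 in stiff, 0, 0 and 1 in soft, 2, 0 and 2 in KO-host and 1, 1 and 0 in WT-host tumours. For both genes each pair of groups overlapped. Serpind1 (heparin cofactor II) had 2, both in B5, and Serpine3 had 1, in B1. Serpine2 (protease nexin-1), Serpinf1 (the angiogenesis inhibitor PEDF), Serpinf2 (alpha-2-antiplasmin), Serping1 (the C1 inhibitor), Serpini1 (neuroserpin) and Serpini2 had 0 protein-altering variants in all 12 tumours.

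Summed over the family, serpins had a lower share of HIGH and protein-altering variants than all protein-coding genes in most tumours. They had 12.5 HIGH variants per 100 coding variants, against 16.3 over all protein-coding genes, and were lower in 12 of 12 tumours. They had 124 protein-altering variants per 100 LOW variants, against 149, and were lower in 10 of 12 tumours. Clade A had 13, clade B 4.85 and clades C to I 20 HIGH variants per 100 coding variants. Protein-altering variants per 100 LOW variants numbered 115 in clade A, 222 in clade B and 165 in clades C to I. Over all genes the number was 149, so only clade A was lower. The family sum leans on Serpina3f, Serpina1b and Serpina5, with 50.8% of its protein-altering counts and 95, 98 and 99 LOW variants. The lower number of protein-altering per 100 LOW variants therefore does not describe the other members. The lower HIGH share does not rest on these 3 genes, which had 41, 13 and 31 HIGH among 224, 191 and 180 coding variants. Clade B, which holds none of them, was also below all genes in HIGH share, while clades C to I were above. Taking for each gene its lowest count in any tumour gave a sum of 18 over the serpins, 36.2% of their mean burden per tumour; over all protein-coding genes the same share was 36.6%. The sum gives only a rough guide to what all tumours could share, since positions are not listed. No coding variant at all was found in 15 serpins (23.8%), against 34.1% of all protein-coding genes.

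Between stiff and soft tumours, which differ in gel stiffness, the serpin burden overlapped. The summed protein-altering count of the 63 genes was 47, 39 and 29 in A7, A8 and A9, and 40, 51 and 42 in A1, A2 and A3. It averaged 38.3 ± 9.02 in stiff and 44.3 ± 5.86 in soft tumours (SD, n = 3 each), a difference of -6 or -13.5%. Over all protein-coding genes the count differed by -9.87%. Expanded paralogues averaged 28.7 ± 5.86 in stiff and 27.7 ± 0.577 in soft tumours, other clade A and B genes 9 ± 5.29 and 14.7 ± 4.73, and clade C to I genes 0.667 ± 0.577 and 2 ± 1. The difference of the family was therefore not in the expanded paralogues but mainly in Serpina5.

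Serpina5 averaged 3.33 ± 2.31 in stiff and 8.67 ± 4.62 in soft tumours (edgeR log2 fold change -1.35, SE 0.63, adjusted p = 1). The groups overlapped at 6, and the difference of -5.33 was -2.67 without A2. Serpinc1 averaged 0 in stiff and 1.67 ± 1.53 in soft tumours, Serpina1b 8.33 ± 0.577 and 7.33 ± 0.577, Serpina16 0.333 ± 0.577 and 1.33 ± 2.31, and Serpina3a 1 ± 1 and 0. These 5 were the members with the largest differences in mean, and each pair of groups overlapped. The Serpina16 difference rests on A3, and without A3 it was 0.333 with the opposite sign.

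No serpin was called in this comparison. edgeR's quasi-likelihood test, fitted on 4312 genes with a sum of at least 3, called 0 genes at a Benjamini-Hochberg adjusted p under 0.05 (0% of genes), with 106 at an unadjusted p under 0.05, of which 0 were serpins. By DESeq2, 0 genes passed and 7 had an unadjusted p under 0.05. The mean was higher in stiff tumours in 13 of the 63 members (20.6%, background 15.9%) and lower in 15 (23.8%, background 20%). Groups without overlap were seen in 0 members, against 0.239% of all genes higher and 0.544% lower in stiff tumours. Of the 63, 18 passed the filter and were tested.

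Between KO and WT hosts, which differ in GPX4 of myeloid cells, the serpin burden overlapped as well. It was 50, 45 and 67 in B4, B5 and B6, and 63, 65 and 58 in B1, B2 and B3. It averaged 54 ± 11.5 in KO and 62 ± 3.61 in WT hosts (SD, n = 3 each), a difference of -8 or -12.9%, beside -21.3% over all protein-coding genes. Per 1000 protein-altering variants of the tumour the direction turned, with 4.85 in KO and 4.35 in WT hosts. Expanded paralogues averaged 37 ± 6.56 in KO and 44.3 ± 2.08 in WT hosts, other clade A and B genes 12.3 ± 8.50 and 15.7 ± 3.51, and clade C to I genes 4.67 ± 2.52 and 2 ± 2.65.

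Serpina1b and Serpina3m were the members whose groups did not overlap, both lower in KO hosts. Serpina1b averaged 7 in KO and 8.33 ± 0.577 in WT hosts (edgeR log2 fold change -0.25, SE 0.08, adjusted p = 1), a gap of 1 variant between the nearest tumours. Serpina3m had 0 in each KO tumour and 1, 1 and 3 in WT-host B1, B2 and B3 (edgeR unadjusted p = 0.0356, adjusted p = 1). It also had 2 in stiff A8 and 0 in the other 5 gel tumours. Serpina5 averaged 5.67 ± 4.93 in KO and 9.33 ± 1.53 in WT hosts, a difference of -3.67 that was -0.833 without B5. Serpina3i had 1, 0 and 0 in KO and 6, 3 and 0 in WT hosts, and Serpinc1 averaged 2.67 ± 2.52 and 1 ± 1.73.

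Serpins were again without a call in this comparison. Of 5309 genes tested by edgeR, 0 passed (0% of genes) and 199 had an unadjusted p under 0.05, while by DESeq2 0 passed and 28 had an unadjusted p under 0.05. Of the 63 members, 24 passed the filter and 1 of them, Serpina3m, had an unadjusted p under 0.05. Serpina3m passed the filter only through its counts in WT hosts, so its p-value lends no support to a difference. The mean was higher in KO hosts in 13 members (20.6%, background 14%) and lower in 15 (23.8%, background 23.6%). Groups without overlap were seen in 2 members lower in KO hosts (3.17%, background 1.06%) and in 0 members higher (background 0.183%).

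**Figure D5:**
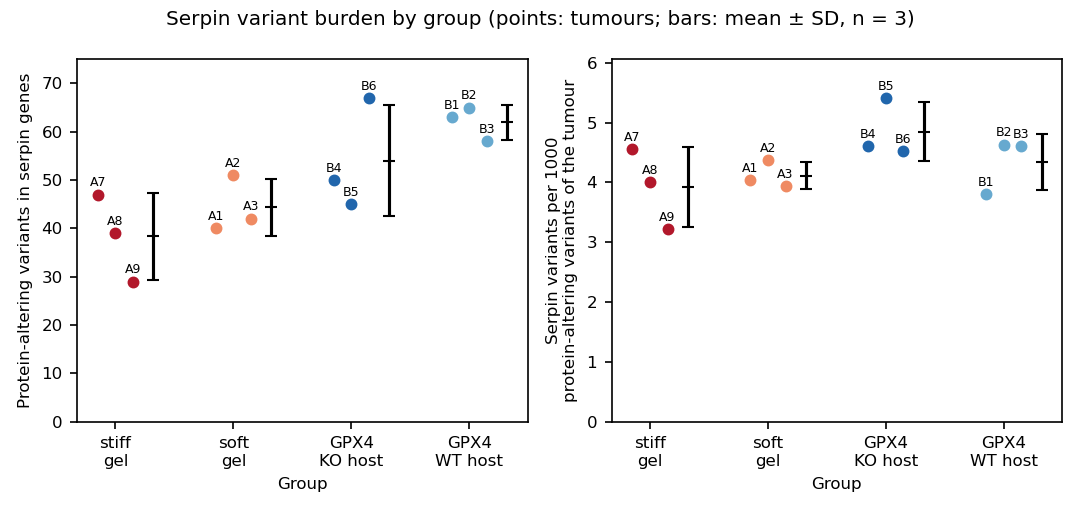
Summed protein-altering variants of the 63 serpin genes (left) and the same per 1000 protein-altering variants of the tumour (right), for each tumour (labelled points) by group, with mean and SD (bars, n = 3). Groups overlap in each experiment, and the KO-host mean lies below the WT-host mean on the left, 54 against 62, and above it on the right, 4.85 against 4.35.

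The gel and host experiments were also set against each other. Mice, gel and possibly sequencing run differ between them and cannot be told apart. The serpin burden averaged 41.3 ± 7.55 in the 6 gel tumours and 58 ± 8.81 in the 6 host tumours, a difference of -16.7 or -28.7%, beside -20.5% over all protein-coding genes. The values ranged from 29 to 51 in gel and from 45 to 67 in host tumours, so A7 lay above host tumour B5, and A2 above B5 and B4. Per 1000 protein-altering variants of the tumour, the means were 4.02 in gel and 4.60 in host tumours. Expanded paralogues, which held 69.3% of all serpin counts, carried most of the difference, with 28.2 ± 3.76 in gel and 40.7 ± 5.92 in host tumours. Other clade A and B genes averaged 11.8 ± 5.46 and 14 ± 6.10, and clade C to I genes 1.33 ± 1.03 and 3.33 ± 2.73.

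Serpina3k had 0 in each gel tumour, 1 in each of the 3 KO-host tumours, 1 in WT-host B1 and B2, and 0 in B3 (edgeR unadjusted p = 0.00847, adjusted p = 0.438). Serpina3i also had 0 in each gel tumour (edgeR unadjusted p = 0.0481, adjusted p = 0.447), but its host counts came from B4, B1 and B2. Serpina1e averaged 3 in gel and 4.33 ± 1.03 in host tumours, with 3 in B4 and B1. Serpinb9h averaged 0 in gel and 1.83 ± 2.86 in host tumours, Serpina3b 0.833 ± 1.33 and 2.67 ± 2.66, Serpina3f 10 ± 2.10 and 11.5 ± 2.43, and Serpina5 6 ± 4.38 and 7.5 ± 3.83. All of these overlapped.

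edgeR tested 6830 genes between gel and host tumours and called 0 (0% of genes), with 740 at an unadjusted p under 0.05, and DESeq2 called 4, of which 0 were serpins. Of the 63 members, 28 passed the filter and 2, Serpina3k and Serpina3i, had an unadjusted p under 0.05. Both passed the filter only through their counts in host tumours, so their p-values lend no support to a difference. The mean was higher in gel tumours in 11 members (17.5%, background 19.5%) and lower in 24 (38.1%, background 29.5%). Groups without overlap were seen in 0 members, against 0% of all genes higher and 0.0657% lower in gel tumours. Protein-altering variants in host tumours alone were found in 8 members (12.7%, background 13.6%), among them Serpina3i, Serpina3j, Serpina3k and Serpinb9h. Variants in gel tumours alone were found in 5 members (7.94%, background 11.6%), all of clade B and each with a total of 1 or 2.

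Proteases that serpins act on, and inhibitors of other families, were listed beside them in 5 lists with 134 genes. Of the 28 coagulation and fibrinolysis genes 14 had a protein-altering variant and 0 had one in all tumours (background 7.47%). Their highest totals were in Procr, the protein C receptor (16), and F13a1, a chain of factor XIII (9). Of the 24 granule and mast cell serine proteases 6 had one, with Prss34 at 16 and Gzmm (granzyme M) at 7. Of 18 cysteine cathepsins 7 had one, led by Ctsl (cathepsin L, 57) and Ctsw (23), and of 26 tissue kallikreins 10 had one, led by Klk14 (30) and Klk1b8 (24). Of 38 other protease inhibitors 19 had one, led by the broad-range macroglobulin inhibitors Pzp (83) and A2m (75). In this order the affected shares were 50%, 25%, 38.9%, 38.5% and 50%, each below the background of 55.5% of all protein-coding genes. No gene of these lists was called by edgeR in any of the 3 comparisons, in which all genes gave 0 calls. The mean per gene and tumour was 0.185, 0.101, 0.426, 0.212 and 0.726 in the order in which the lists are given here. It was 0.788 in all 63 serpins, 1.73 in clade A, 0.211 in clade B and 0.542 in all protein-coding genes.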

How the data were processed

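Exomes of 12 tumours, 3 in each of 4 groups taken from the labels, were analysed; 2 wild-type tails were not analysed here. Reads were processed against GRCm39 with BWA 2.2.1, GATK and SAMtools 1.19.2, per the submitters' processing notes. Not given in the sources used here were caller settings, filters and any matched normal. The authors deposited whole-number counts of variants per transcript, written by snpEff per the file headers, split by impact class and by effect. Columns of start and stop effects hold the same kind of count.

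For each gene the highest count among its protein-coding transcripts was taken in each impact class, and an unlisted gene counted as 0. Protein-altering counts were HIGH plus MODERATE, and coding counts added LOW. Per tumour there were 8317 to 16544 protein-altering, 14434 to 27337 coding and 334678 to 695818 MODIFIER variants. A9 and B5 had the fewest coding variants. No 2 tumours had identical tables, the most alike pair having equal counts in 82.8% of genes. Read depth is unknown, so no interval is given. Rows with a blank biotype held no serpin.

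Gene counts were tested with edgeR 4.0.16 in R 4.3.3 (quasi-likelihood, equal library sizes, sum of at least 3, Benjamini-Hochberg over all genes tested, threshold 0.05), after a check on simulated data. That check placed only increases, and only in genes with high mean counts. It does not show whether a change in low counts, as in most serpins, would be called. DESeq2 1.42.0 was the other tool. The SE is approximate, the size of the log2 fold change divided by the root of the F statistic. Labels name separate tumours, so p-values measure the spread between these, except where counts vary very little. In such genes edgeR's test keeps p from falling below that of a Poisson model, which ignores the spread. An example is Serpina1b between KO and WT hosts, with an edgeR unadjusted p = 0.555 despite its small SE. The SE and p of such a gene do not describe the same spread. Sums over the family were not tested.

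The members and lists were chosen with earlier results of these data known. Values per tumour are given for the 12 members with the highest totals, the 5 largest differences in each comparison, members whose groups do not overlap, and clade C to I members with variants in 3 or more tumours. In the 5 other lists the 2 genes with the highest totals are named. Others singled out were chosen after their values were seen. Some items are left out of the text. Promoters and gene order come from RefSeq (GRCm38.p6), a build other than that of the counts, so no variant was placed on them. The alternatives changed transcript, impact class, biotype, scaling, filter, tool and tumours. Leaving out A9 and B5 in the gel and host comparison was chosen after seeing the data.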

Additional observations from a re-analysis of the deposited data

Results flagged for a closer look

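Among 34 sets of 6 tumours (1 named gene, or the family's sum, in 1 experiment), 9 had a tumour far from the others by Dixon's test. For continuous values chance flags about 1 in 20 such sets, but these are small tied counts, in which 1 tumour that departs from 5 equal ones is always picked out, so the 9 cannot be set against that rate. Of gel tumours these were A2 for Serpina5 (14, the next being 6), A9 for Serpina3f (6, the next being 10), A3 for Serpina16 (4, the next being 1), A7 for Serpina1a (3, the next being 1) and A8 for Serpina3m (2, with 0 in the other 5). Of host tumours they were B5 for Serpina5 (0, the next being 8), B6 for Serpina1f (4, the next being 2), B3 for Serpina3m (3, the next being 1) and B5 for Serpinb6d (0, with 1 in the other 5). A9 and B5, which account for 3 of the 9, also had the fewest coding variants over all genes, and whether that bears on these counts was not tested. Serpin pseudogenes, which no comparison uses, held 3484 MODIFIER variants over the 12 tumours in 6 genes. Serpina4-ps1 (1236), Serpina3e-ps (1148), Serpina3l-ps (574) and Serpina3d-ps (449) had them in all 12 tumours, Serpina3h (68) in 11 and Serpinb1-ps1 (9) in 7.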

How the results depend on the processing

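Of the main results 101 alternative values kept their direction and side of the threshold, 5 moved, 3 gained calls and 1 reversed. Per 1000 protein-altering variants of the tumour, the KO minus WT burden was 0.497, opposite to the count, and the gel minus host burden was -0.577. Genes past the threshold between gel and host tumours numbered 2 with library sizes set to each tumour's total, 4 with DESeq2 and 0 to 3 with single tumours left out (3 without A2); 0 of these were serpins. With LOW variants included, 77.8% of expanded paralogues and 87.5% of other clade A and B genes were affected, with means of 1.65 and 1.68 per gene and tumour, so the order of these 2 means turned. With single tumours left out, the burden difference was -10.3 to -1.33 (stiff minus soft), -14.5 to -3.5 (KO minus WT) and -19.3 to -14.2 (gel minus host), the number of genes past the threshold was 0 to 0 in each of the first 2 comparisons, and the Serpina16 difference between stiff and soft tumours ranged from -1.67 to 0.333, reversing without A3. Of single genes, 145 alternative values stayed and 4 moved, among them Serpinc1, whose difference was 0 with the median over transcripts in both the stiff and soft and the KO and WT comparisons. The cause was not tested. Counts per coding length were not run, since no protein lengths were used here. Only soft and WT-host tumours share label numbers, and the labels tie these numbers to no shared animal or batch. With the number as a replicate block, chosen after seeing the data, the gel minus host burden was -17.7 (from these 6 tumours). In edgeR too, tumours with a number of their own drop out under the block, so only these 6 inform the test. It called 0 genes, with 74 at an unadjusted p under 0.05. The 740 without the block came from all 12 tumours, so 74 against 740 does not show the effect of the block alone. Deviations of same-numbered tumours correlated at -0.0229, 0.00701 and 0.0425 over 5178 genes, and of the soft tumours only A3 correlated best with its own number. Unknown read depth limits every count, and a count of 0 does not show that a variant is absent.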
